A study of Mus musculus with 6 samples.

Results

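The growth factor receptors of the myeloid lineage are described here as 9 genes: Csf2ra, Csf2rb, Csf2rb2, Csf1r, Csf3r, Flt3, Kit, Il3ra and Il7r. They were taken by gene symbol from the platform annotation of Illumina mouse bead arrays, where all 9 had at least 1 probe and together they had 23 of the 45281 probes and were 9 of the 19057 named genes. The brightest probe above background stood for each gene, and the other probes served as a check. RNA came from C57BL/6 bone marrow grown in GM-CSF at 20 ng/ml, in a study of what blocking p38 MAP kinase in progenitors does to the dendritic cells (DC) that arise. The cultures held SB202190, a small-molecule p38 inhibitor at 1.5 mM as the labels write it, with the unit unchecked,, or 0.1% DMSO. There were 3 stages: pre-DC after 2 days, immature DC (the semi-adherent cells at day 7), and mature DC after 48 h more with TNF-a and IL-1b, each at 10 ng/ml. Each stage had 1 SB202190 array and 1 DMSO array, so all 6 arrays share the strain, the marrow source and GM-CSF. Whether SB202190 was still present during maturation, whether the cultures were independent and whether the SB202190 cultures also held DMSO are not stated in the labels.

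These receptors tell marrow cells which growth factors they can answer. The GM-CSF receptor pairs a specific alpha chain (Csf2ra) with a common beta chain (Csf2rb) that the IL-3 and IL-5 receptors share. Mice also have a near-copy of the beta chain that serves IL-3 alone (Csf2rb2). These chains have no kinase of their own and signal through JAK2 and STAT5. Csf1r, Kit and Flt3 are related receptor tyrosine kinases for macrophage colony-stimulating factor, stem cell factor and FLT3 ligand. Csf3r is the receptor for granulocyte colony-stimulating factor, and Il7r is the alpha chain shared by the IL-7 receptor and the TSLP receptor, and TSLP receptors are known on DC.

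Between 14623 and 15328 probes were detected on each array (detection p under 0.01); mature DC with SB202190 had the lowest number. Levels are log2 intensities after background correction and quantile normalization, on which probes at background lie near 5. A probe's level cannot be set against another probe's, so levels are compared only within a gene. Of the 19 DC markers, 18 or 19 were detected on every immature and mature DC array and 16 on each pre-DC array, where 17 of the 18 neutrophil markers with a probe were also detected. Summed over those 18 probes, normalized intensity was 313974 with SB202190 and 333874 with DMSO in pre-DC, between 55106 and 72811 on the immature DC arrays and between 30444 and 32536 on the mature DC arrays. In such bulk samples, fewer cells of a type and less RNA per cell cannot be told apart.

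The windows of 300 bases around the annotated starts (250 before, 50 after) of Il7r and Csf2rb2, which rose, and of Csf3r and Kit, which fell, are shown because these genes carry much of the stage differences described next. No window is shown for Csf1r or Csf2rb. Kit has a pair of overlapping starts, and the window of the first is given. The sequences are from RefSeq on GRCm38.p6, each 5′ to 3′ along its gene. Capitals mark GAGGAA on either strand (TTCCTC on the other), the core of the site bound by the myeloid factor PU.1.
Il7r, minus strand, chr15:9529827-9530126: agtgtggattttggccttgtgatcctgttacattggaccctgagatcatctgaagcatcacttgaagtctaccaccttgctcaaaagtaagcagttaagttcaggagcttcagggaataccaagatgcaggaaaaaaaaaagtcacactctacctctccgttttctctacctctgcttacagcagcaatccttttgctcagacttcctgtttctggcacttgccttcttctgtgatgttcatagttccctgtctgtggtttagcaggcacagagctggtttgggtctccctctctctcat
Csf2rb2, minus strand, chr15:78305672-78305971: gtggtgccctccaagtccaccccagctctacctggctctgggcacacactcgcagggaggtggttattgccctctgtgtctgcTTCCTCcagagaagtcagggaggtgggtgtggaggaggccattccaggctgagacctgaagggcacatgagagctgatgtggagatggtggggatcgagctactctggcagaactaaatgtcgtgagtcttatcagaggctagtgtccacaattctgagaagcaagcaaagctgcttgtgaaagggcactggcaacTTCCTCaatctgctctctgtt
Csf3r, plus strand, chr4:126024409-126024708: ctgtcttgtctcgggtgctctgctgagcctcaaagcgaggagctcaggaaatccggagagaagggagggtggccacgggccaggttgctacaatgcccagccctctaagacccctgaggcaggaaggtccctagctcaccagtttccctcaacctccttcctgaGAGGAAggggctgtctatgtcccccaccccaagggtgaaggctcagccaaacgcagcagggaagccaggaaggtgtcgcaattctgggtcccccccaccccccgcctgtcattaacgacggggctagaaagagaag
Kit, plus strand, chr5:75574737-75575036: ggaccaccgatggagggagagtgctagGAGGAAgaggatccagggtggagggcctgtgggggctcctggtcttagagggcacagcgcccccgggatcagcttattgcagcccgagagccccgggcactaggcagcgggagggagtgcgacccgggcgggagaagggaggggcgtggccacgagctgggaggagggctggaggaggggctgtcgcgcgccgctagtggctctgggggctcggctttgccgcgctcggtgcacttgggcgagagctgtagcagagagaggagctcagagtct
The letters GAGGAA stand once in the Csf3r and Kit windows and 2 times in the Csf2rb2 window, and they are not in the Il7r window. Of the 7 receptor genes matched to a window, 4 hold them, the other being Csf2ra, against 28.3% of all 32851 windows of this length. The receptor genes are counted once each, also Kit with its pair of windows, while the share is over single windows. Searched in the same way on both strands, GATAA was in 1 of the 7 (25.4% of all windows), TGTGGT in 1 (16.8%) and TTGCNNAA in 2 (10.8%). The motifs searched do not overlap one another in these 4 windows. Spi1, which encodes PU.1, had a log2 difference of -0.18 (SE 0.13, limma adjusted p = 0.279) for immature DC minus pre-DC. Csf2rb and Csf2rb2 lie on chromosome 15 with 1 annotated gene, a microRNA, between them.

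**Figure D1:**
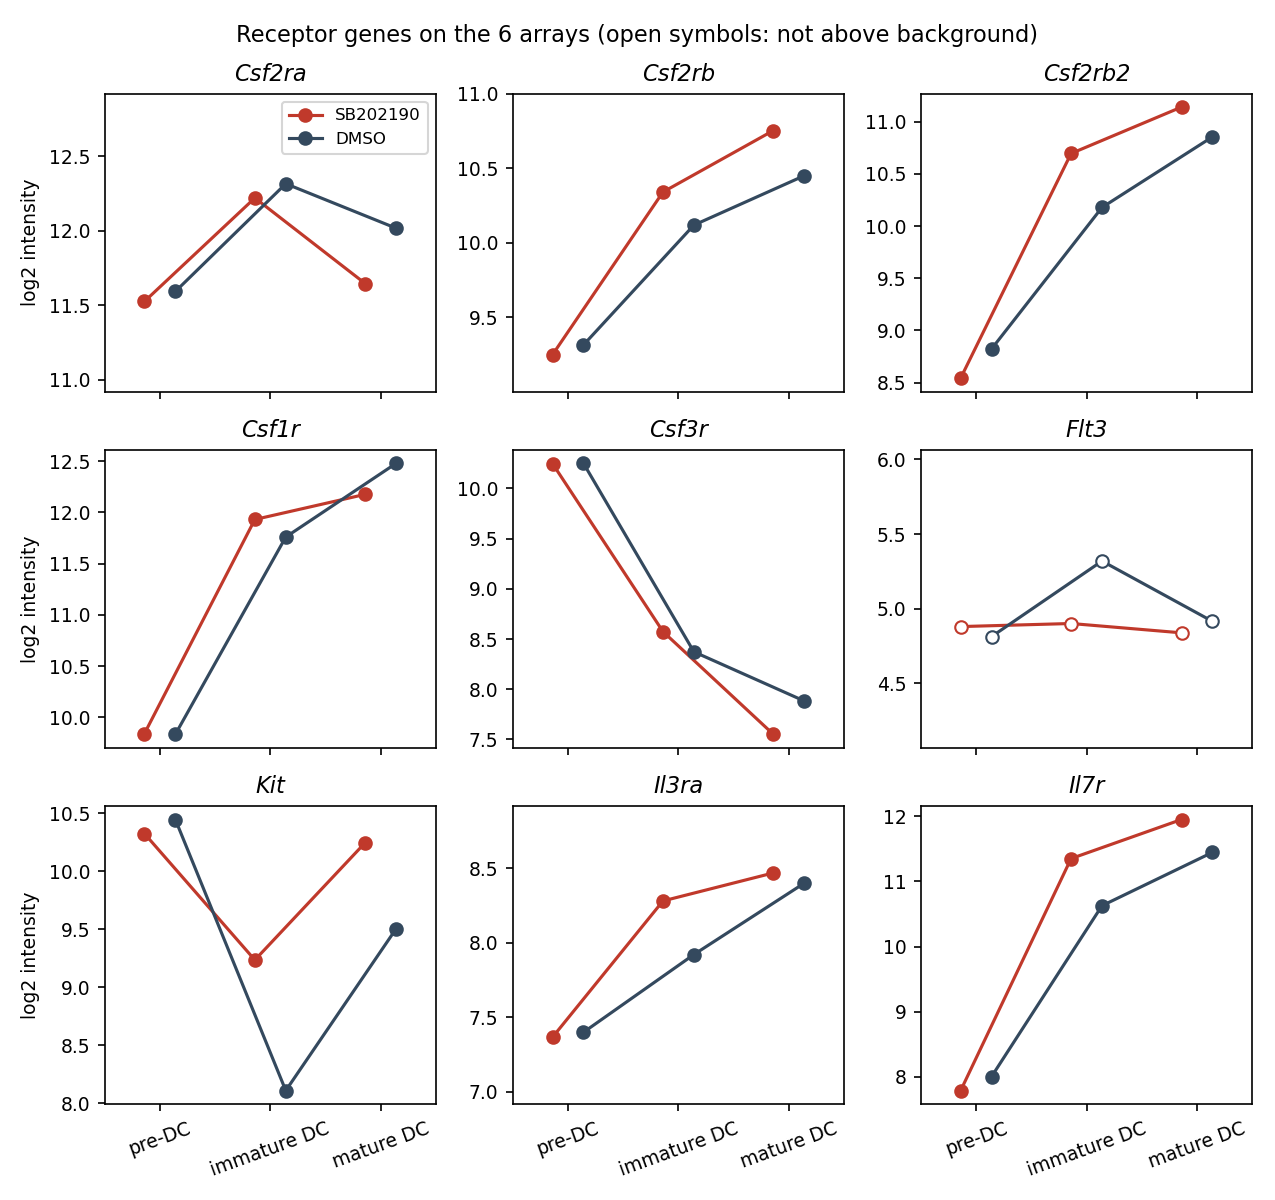
Log2 intensity of each receptor gene by stage, with SB202190 in red left of DMSO in dark blue, 1 array per point and an axis of its own in each panel; lines join arrays of the same treatment. Il7r, Csf1r and Csf2rb2 are lowest on both pre-DC arrays, Csf3r is highest there, Kit is lowest in immature DC, and the open symbols of Flt3 are not above background.

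From pre-DC to immature DC each receptor gene tested passed the threshold, though not all in the same direction, and Flt3 was not tested. The calls of Csf2ra and Il3ra did not hold with some arrays left out, as given below. These genes were chosen with earlier results of these data known. Of the 8 receptor genes tested, 6 rose and 2 fell (limma, adjusted p under 0.05). Il7r rose 8.53-fold, Csf1r 4.02-fold and Csf2rb2 3.37-fold, while Csf3r was 3.43-fold lower and Kit 3.28-fold lower. The step is a large one in these cultures, since 51.0% of the 9223 genes tested passed in either direction, 25.6% as higher and 25.4% as lower. The median absolute log2 difference was 1.73 over the 8 receptor genes and 0.47 over all genes tested. The test uses all 6 arrays with treatment as a block and has 2 residual degrees of freedom, so its p-values rest on the spread among these 6 arrays alone, which may be partly technical.

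From immature to mature DC fewer receptor genes passed: Kit rose 2.31-fold and Csf3r was 1.69-fold lower, and the other 6 did not pass. In this step 21.5% of the 9223 genes passed, 10.5% as higher and 11.1% as lower, so 2 of 8 is near the background. Over the whole course, mature DC against pre-DC, 5 receptor genes rose and 1 fell, beside 61.2% of all genes tested in either direction, 30.8% as higher and 30.4% as lower. Csf2ra and Kit were the 2 that did not pass over the whole course.

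**Figure D2:**
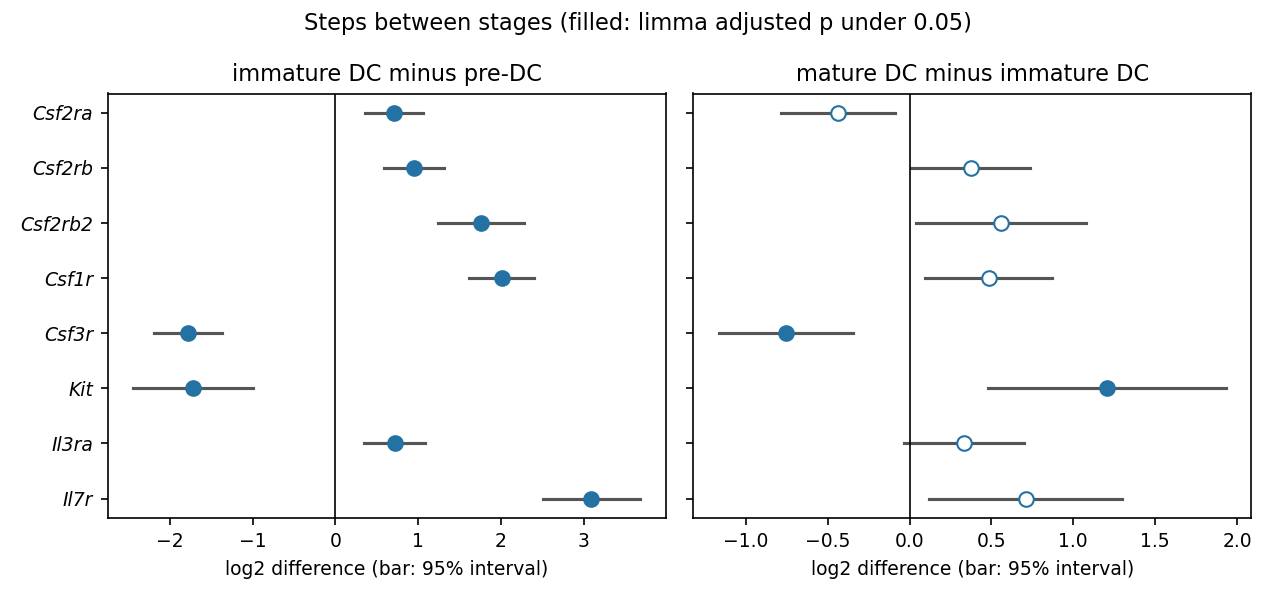
Log2 differences of the 8 tested receptor genes for the first step (immature DC minus pre-DC, left) and the second (mature minus immature DC, right), from limma over the 6 arrays; bars are 95% intervals and filled points passed at an adjusted p of 0.05. All 8 points are filled on the left, and Csf3r and Kit alone on the right.

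The chain specific for GM-CSF, the cytokine in the medium, had the smallest range over the 6 arrays among the 8 receptor genes above background. Csf2ra had a level of 11.53 with SB202190 and 11.59 with DMSO in pre-DC. It had 12.22 with SB202190 and 12.31 with DMSO in immature DC, and 11.64 with SB202190 and 12.02 with DMSO in mature DC. Both immature DC arrays were above all others, and the whole range over the 6 arrays was 0.79. The rise to immature DC was 0.71 (SE 0.14, limma adjusted p = 0.00894), and it did not pass with the immature DC array of SB202190 left out (0.65, adjusted p = 0.0811). Mature minus immature DC was -0.44 (SE 0.14, adjusted p = 0.0786), so the order was immature, mature and pre-DC, with mature DC not separated from either neighbour by the test (mature minus pre-DC 0.27, SE 0.14, adjusted p = 0.142). The difference at maturation did pass without background correction (adjusted p = 0.0234), with an offset of 50 (0.0428) and with trend and robust moderation (0.0248).

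The common beta chain Csf2rb had levels of 9.25 with SB202190 and 9.31 with DMSO in pre-DC, 10.34 with SB202190 and 10.12 with DMSO in immature DC, and 10.75 with SB202190 and 10.45 with DMSO in mature DC. Every immature and mature DC array was above both pre-DC arrays. It rose by 0.95 (SE 0.15, limma adjusted p = 0.00372) to immature DC, and its further difference of 0.37 (SE 0.15, adjusted p = 0.126) did not pass. The other 2 probes of Csf2rb, detected on all 6 arrays, had 1.03 and 0.56 for the first step and 0.39 and 0.29 for the second.

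Csf2rb2, the IL-3-specific beta chain of the mouse, moved further than Csf2rb. Its levels were 8.54 with SB202190 and 8.82 with DMSO in pre-DC, 10.70 with SB202190 and 10.18 with DMSO in immature DC, and 11.14 with SB202190 and 10.85 with DMSO in mature DC. Pre-DC arrays were the lowest and mature DC arrays the highest. The rise to immature DC was 1.75 (SE 0.21, limma adjusted p = 0.00166) and the later difference 0.56 (SE 0.21, adjusted p = 0.114). The second difference passed without background correction (0.52, adjusted p = 0.0446) and with either pre-DC array left out (0.56, adjusted p = 0.0295). The 2 genes are near-identical and the probe sequences were not used here, so how far each probe reads its neighbour is uncertain. Whether their steps differ from each other was not tested.

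Il3ra, the alpha chain that takes IL-3 to these beta chains, had levels of 7.37 with SB202190 and 7.40 with DMSO in pre-DC, 8.28 with SB202190 and 7.92 with DMSO in immature DC, and 8.47 with SB202190 and 8.40 with DMSO in mature DC. All 4 later arrays lay above the pre-DC arrays. The rise to immature DC was 0.72 (SE 0.15, limma adjusted p = 0.0104) and mature minus immature DC was 0.33 (SE 0.15, adjusted p = 0.165). The first of these did not pass with the pre-DC array of SB202190 left out (adjusted p = 0.0532) or the immature DC array of SB202190 left out (0.103). Mature minus pre-DC was 1.05 (SE 0.15, adjusted p = 0.00183), a 2.07-fold rise. So every chain of the GM-CSF and IL-3 receptors listed here passed as higher in immature DC than in pre-DC.

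Il7r had the highest fold change of the set. Its unnormalized intensities were 376 with SB202190 and 418 with DMSO in pre-DC, 2653 with SB202190 and 1763 with DMSO in immature DC, and 3296 with SB202190 and 2391 with DMSO in mature DC. On the normalized log2 scale the SB202190 arrays had 7.79, 11.35 and 11.95 in pre-DC, immature DC and mature DC, and the DMSO arrays had 8.003, 10.63 and 11.45. The stages did not overlap. The log2 difference was 3.09 (SE 0.24, limma adjusted p = 4.79e-04) for immature DC minus pre-DC, and 1.44% of all genes tested had a larger absolute difference. Mature minus immature DC was 0.71 (SE 0.24, adjusted p = 0.0882) and mature minus pre-DC was 3.80 (SE 0.24, adjusted p = 1.41e-04), a 13.95-fold rise. The middle value passed without background correction (adjusted p = 0.0292), with an offset of 50 (0.0417), with trend and robust moderation (0.0355), and with either pre-DC array left out (0.0109).

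Il7r is also a lymphoid gene, so lymphoid markers are given beside it. Of 15 T and NK lineage markers with a probe, 6 were detected on at least 1 array in pre-DC, 4 in immature DC and 3 in mature DC, with summed intensities of 3693 to 4558, 869 to 1071 and 1142 to 1219 in these stages. Of the 5 tested, 2 rose and 3 fell in the first step (51.0% of all genes tested passed). Those that rose were Rora, a nuclear receptor gene (levels of 7.38 with SB202190 and 7.30 with DMSO in immature DC, not above background in pre-DC, limma adjusted p = 3.05e-04), and Klrd1, an NK cell receptor gene (0.97, SE 0.27, adjusted p = 0.0296). Rora rose by a further 1.06 (SE 0.13, adjusted p = 0.00614) at maturation. The T and NK markers Cd3g, Cd8a, Cd4, Ncr1 and Gata3 were not above background on any array. Of the 14 B lineage markers with a probe, 8, 2 and 2 were detected in pre-DC, immature DC and mature DC, and their sums were 2513 to 4538, 594 to 610 and 873 to 875. Of the 8 tested, 7 fell in the first step and 1 rose, the adaptor gene Blnk, by 0.94 (SE 0.15, limma adjusted p = 0.00379) and again by 1.23 (SE 0.15, adjusted p = 0.00538) at maturation. Both sums were thus highest in pre-DC, where Il7r was lowest, while Rora, Klrd1 and Blnk, named after their values were seen, rose in the first step as Il7r did. The part of these markers in the Il7r values was not tested. Of the TSLP receptor, the partner chain Crlf2 was detected on all 6 arrays with 0.43 (SE 0.16, limma adjusted p = 0.0658) for immature DC minus pre-DC.

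Csf1r, the receptor of macrophages and monocytes, had levels of 9.84 on both pre-DC arrays. It had 11.93 with SB202190 and 11.76 with DMSO in immature DC, and 12.18 with SB202190 and 12.48 with DMSO in mature DC. The stages did not overlap. It rose by 2.01 (SE 0.16, limma adjusted p = 4.98e-04) to immature DC and by 2.49 (SE 0.16, adjusted p = 1.41e-04) over the whole course. Mature minus immature DC was 0.48 (SE 0.16, adjusted p = 0.082), which passed without background correction (0.0272), with an offset of 50 (0.0438) and with trend and robust moderation (0.0292). Its second probe had 1.72 and 0.41 for the 2 steps. Macrophage markers rose with it in the first step: 12 of the 14 tested passed as higher, beside 25.6% of all genes tested. Their median was 2.72 against 0.0018 over all genes tested. Their summed intensity was 16338 to 17392 in pre-DC, 46299 to 47914 in immature DC and 39610 to 51340 in mature DC. Between immature and mature DC, 2 of these 14 markers passed as higher and 4 as lower, beside 10.5% and 11.1% of all genes tested. Those that rose were Cd14 (2.33, SE 0.18) and Marco (1.83, SE 0.34). The median of the 14 was -0.59, while Csf1r had 0.48. Of the 15 with a probe, Cd163 was not above background on any array. Among 5 monocyte markers tested, 2 passed as higher and 2 as lower in the first step. Their summed intensity over 8 probes was 16890 to 17820 in pre-DC, 5272 to 7633 in immature DC and 7941 to 9707 in mature DC. DC markers rose in the first step too, with 18 of the 19 tested passing as higher (median 1.73). The part of the macrophage, monocyte and DC markers in the Csf1r values was not tested.

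Csf3r, the G-CSF receptor of neutrophils and their precursors, moved the other way. It had levels of 10.25 on both pre-DC arrays, 8.57 with SB202190 and 8.37 with DMSO in immature DC, and 7.55 with SB202190 and 7.88 with DMSO in mature DC. The stages did not overlap. The log2 difference was -1.78 (SE 0.17, limma adjusted p = 7.87e-04) for immature DC minus pre-DC and -0.76 (SE 0.17, adjusted p = 0.0287) for mature minus immature DC. Over the whole course it was 5.79-fold lower. The second fall did not pass with the immature DC array of SB202190 (adjusted p = 0.181), the immature DC array of DMSO (0.0742) or the mature DC array of SB202190 (0.132) left out, nor with the mean of all probes (0.053).

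Csf3r had 5 probes. Those detected on 5, 4 and 4 arrays had -2.33, -1.83 and -1.05 for the first step. For the second, the first 2 of these had -0.81 and 0.37, and the third, not above background on either mature DC array, was at least 1.24-fold lower in mature DC. The probe with -0.81 was not above background on the mature DC array of SB202190, and the probe with 0.37 was above background on 1 of the 2 immature DC arrays and on 1 of the 2 mature DC arrays. The last probe was not above background on any array. All 17 neutrophil markers tested fell in the first step (median -3.32), where 25.4% of all genes tested passed as lower. In the second, 12 fell and 1 rose (median -1.67), beside 11.1% of all genes tested as lower and 10.5% as higher. Both medians were larger in size than the change of Csf3r in that step. The remaining marker, Mmp8, was not above background on any array. The part of these markers in the Csf3r values was not tested.

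Kit, the stem cell factor receptor of progenitors and mast cells, had a minimum in immature DC. Its unnormalized intensities were 1630 with SB202190 and 1757 with DMSO in pre-DC, 698 with SB202190 and 410 with DMSO in immature DC, and 1086 with SB202190 and 691 with DMSO in mature DC. The normalized log2 levels in pre-DC, immature DC and mature DC were 10.33, 9.24 and 10.25 with SB202190, and 10.45, 8.11 and 9.51 with DMSO. Both immature DC arrays were below all others, and the mature DC array of SB202190 was close to the pre-DC arrays. Immature DC minus pre-DC was -1.72 (SE 0.29, limma adjusted p = 0.00537) and mature minus immature DC was 1.21 (SE 0.29, adjusted p = 0.0387). Over the whole course the difference was -0.51 (SE 0.29, adjusted p = 0.18), with a 95% interval from -1.24 to 0.22.

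The rise of Kit at maturation rested on each of 3 arrays. Its adjusted p was 0.221 without the immature DC array of DMSO, where the log2 difference was 0.80, 0.187 without the mature DC array of SB202190 and 0.124 without the mature DC array of DMSO. It was 0.0588 with no detection filter, 0.0763 without the treatment block and 0.0536 with the mean of all probes. Without the pre-DC array of SB202190 the whole-course value was -1.04 (adjusted p = 0.00429), and without that of DMSO it was 0.018 (0.951). The second probe was not above background on either immature DC array and so gives only bounds, at least 1.95-fold lower in immature DC than in pre-DC and at least 1.46-fold higher in mature than in immature DC. The remaining probe was not above background on any array.

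No progenitor or mast cell marker passed as higher at maturation, the step in which Kit rose. Of 7 mast cell and basophil markers tested, 6 fell in the first step, where 25.4% of all genes tested passed as lower and 25.6% as higher. The remaining marker, Hpgds, rose (levels of 6.66 with SB202190 and 5.83 with DMSO in immature DC, not above background in pre-DC, limma adjusted p = 0.0266). In the second step, where 11.1% of all genes tested passed as lower, 5 of these 7 markers fell and 0 rose (median -1.19). Their summed intensity over 15 probes was 7109 to 9261 in pre-DC, 1237 to 1694 in immature DC and 642 to 677 in mature DC, and Gata1, Cma1, Tpsb2 and Tpsab1 were not above background on any array. Of 10 progenitor markers tested, 4 fell and 2 rose in the first step, near the 51.0% of all genes tested that passed. In the second step, where 21.5% of all genes tested passed, 3 of these 10 markers fell and 0 rose (median -0.34). Of these, Cd34, a surface protein of stem and progenitor cells, was detected on the pre-DC arrays only. Without regard to the threshold, 2 of the 10 were higher in mature than in immature DC and 8 lower. The 2 were Meis1 (7.42 to 8.02 with SB202190, 7.04 to 7.25 with DMSO) and Sox4 (8.27 to 8.57 with SB202190, 7.37 to 7.81 with DMSO). The part of the progenitor and mast cell markers in the Kit levels was not tested.

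Flt3, the receptor that marks common DC progenitors and DC in the body, was not above background on any of the 6 arrays with either of its 2 probes. The detection p of the brighter probe ran from 0.0246, on the immature DC array of DMSO, to 0.276. That array would count as detected at a threshold of 0.05. No fold is given for Flt3, and these probes give only an upper bound on its signal.

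**Figure D3:**
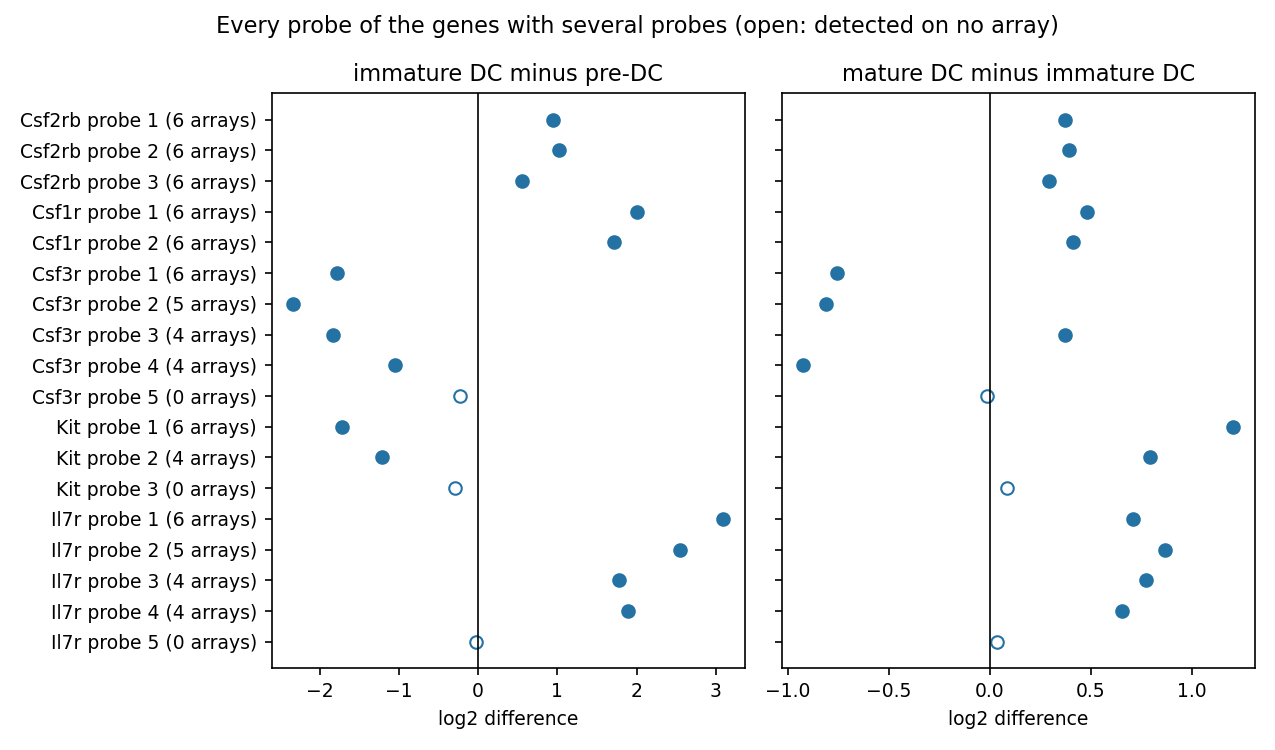
Log2 differences for both steps for every probe of the 5 tested genes with more than 1 probe, with the number of arrays on which the probe was detected; open points were detected on no array. A filled point whose probe was below background in a whole stage (Kit probe 2, Csf3r probe 4, Il7r probes 3 and 4) shows a difference from background. Detected probes of a gene lie on the same side of 0, except for Csf3r probe 3 in the second panel (0.37).

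The comparison with p38 inhibition asked whether the receptors differ between SB202190 and DMSO cultures. In limma with stage as a block, none of the 8 receptor genes and 0 of the 9223 genes (0%) passed, with 855 genes at an unadjusted p under 0.05 and 1 gene past the threshold with trend and robust moderation. In this test a response that differs between stages counts as error. Kit had the largest mean difference of the set, 0.58 (SE 0.24, adjusted p = 0.54, 95% interval -0.010 to 1.18). Only 1.59% of all genes tested had a larger absolute difference. Il7r had 0.34 (SE 0.19, adjusted p = 0.607, interval -0.14 to 0.82).

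For the GM-CSF and IL-3 receptor chains the mean differences were -0.18 (SE 0.11) for Csf2ra, 0.15 (SE 0.12) for Csf2rb, 0.17 (SE 0.17) for Csf2rb2 and 0.13 (SE 0.12) for Il3ra. Csf1r had -0.042 (SE 0.13), with a 95% interval from -0.36 to 0.28, and Csf3r had -0.045 (SE 0.14), with one from -0.38 to 0.29. Both of these turned positive with either mature DC array left out, to 0.089 for Csf1r and 0.099 for Csf3r. Across the set 5 means were positive and 3 negative, with a median of 0.14 against 0.0065 over all genes tested.

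Within stages there was 1 array on each side and no test. In immature DC, Kit was 2.18-fold higher with SB202190, past the 2-fold limit that 0.592% of 8957 genes passed as higher and 0.547% as lower (1.14% in either direction). In mature DC it was 1.67-fold higher and in pre-DC 1.09-fold lower. Its second probe had a log2 difference of -0.10 in mature DC, where the first had 0.74, and it was not above background on either immature DC array, so it gives no check of the value there. Il7r was 1.65-fold higher in immature DC, 1.42-fold higher in mature DC and 1.16-fold lower in pre-DC. Its other detected probes had log2 differences of 0.60, 0.77 and 0.70 in immature DC and 0.058, 0.40 and 0.59 in mature DC. With the probe that stands for each gene, no other receptor gene reached 1.5-fold in any stage. The second probe of Csf1r had -0.76 in mature DC, where the first had -0.30. The second probe of Csf3r was not above background on the mature DC array of SB202190. None of the 8 genes reached 2-fold in pre-DC, where 0.607% of 8893 genes did (0.157% higher, 0.450% lower), or in mature DC, where 1.91% of 8948 genes did (0.939% higher, 0.972% lower).

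With the pre-DC pair left out, the mean difference was 0.93 for Kit, 0.61 for Il7r and 0.40 for Csf2rb2. That fit has 1 residual degree of freedom fewer. Each of these genes was lower with SB202190 in pre-DC, so leaving out that pair raised its mean difference by construction. Of the 7 mast cell and basophil markers tested, 5 were higher and 2 lower with SB202190 than with DMSO in immature DC, 4 were higher and 3 lower in mature DC, and all 7 were lower in pre-DC. Across stages their median difference was -0.015 and 0 passed. In immature DC the 15 markers with a probe summed to 1694 with SB202190 and 1237 with DMSO, and in mature DC to 677 with SB202190 and 642 with DMSO. Without Cpa3, a mast cell protease singled out after its values were seen, the sums were 1245 with SB202190 and 1076 with DMSO in immature DC, and 507 with SB202190 and 560 with DMSO in mature DC. Of the 10 progenitor markers tested, 7 were higher and 3 lower with SB202190 in immature DC (median 0.14). In mature DC 6 were higher and 4 lower (median 0.15), and in pre-DC 5 were higher and 5 lower (median -0.013).

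All 19 DC markers were higher with SB202190 than with DMSO in immature DC and in mature DC, with median log2 differences of 0.65 and 0.52. In pre-DC 14 were higher and 5 lower, the lower ones being Fscn1 (-2.25), Cd83 (-2.22), Ccr7 (-0.92), Cd86 (-0.33) and Ccl22 (-0.21). Ccr7 was not above background on the pre-DC array of SB202190, and Ccl22 on neither pre-DC array. Across stages the DC markers had a median difference of 0.43, against 0.0065 over all genes tested, and 0 passed. Within a stage there was no test, and the marker list was chosen with earlier results of these data known. Kit and Il7r had -0.12 and -0.22 in pre-DC, where all tested receptor genes but Csf1r (0.0070) were lower with SB202190. Csf2rb2 had the lowest value of the set there, -0.28. The part of the progenitor, mast cell and DC markers in the Kit and Il7r values was not tested.

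The steps themselves can be set side by side by treatment. From pre-DC to immature DC, Kit was 2.13-fold lower with SB202190 and 5.06-fold lower with DMSO, and Il7r was 11.81-fold higher with SB202190 and 6.16-fold higher with DMSO. Csf2rb2 was 4.45-fold higher with SB202190 and 2.56-fold higher with DMSO. From immature to mature DC, Kit was 2.02-fold higher with SB202190 and 2.64-fold higher with DMSO, and Csf3r was 2.03-fold lower with SB202190 and 1.41-fold lower with DMSO. The direction of each step was the same in both arms for all 8 receptor genes. Whether the arms differ was not tested, since each has 1 array at each stage.

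Of the 10 ligands on the list, only 2 were detected on at least 2 arrays. Csf1, which encodes a ligand of Csf1r, had 5.63, 5.71 and 5.37 with SB202190 and 6.54, 6.16 and 6.11 with DMSO in pre-DC, immature DC and mature DC. It was lower with SB202190 in all 3 pairs, as were 15.1% of all genes tested, and was not above background on the mature DC array of SB202190. The mean difference was -0.70 (SE 0.13, limma adjusted p = 0.445) and did not pass. Il7, a ligand of Il7r, was detected on both mature DC arrays and on the immature DC array of DMSO, and mature DC against pre-DC it was at least 1.88-fold higher (limma adjusted p = 0.00767), since neither pre-DC array was above background. Folds given as at least N here set the brighter stage against the lowest signal among detected probes. Csf2, Csf3, Il3, Il5, Il34, Kitl, Flt3l and Tslp were not above background on any array.

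The signalling genes below the receptors were taken from lists. Of 15 JAK, STAT and adaptor genes tested, 8 rose and 2 fell in the first step (median 0.62), where 25.6% of all genes tested passed as higher and 25.4% as lower. Among them was Jak2, the kinase bound by the beta chains, which rose 3.38-fold (SE 0.17 on the log2 scale, limma adjusted p = 8.31e-04). Stat5a rose 2.08-fold and Tyk2, another Janus kinase, 2.03-fold. In the second step 2 rose and 1 fell (median 0.066), where 21.5% of all genes tested passed in either direction. Pik3cd, a leukocyte PI3 kinase subunit, was 2.31-fold lower, Jak3 1.67-fold higher and Syk, a kinase of immune receptors, at least 1.46-fold higher, since it was not above background in immature DC.

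Of 14 negative regulators tested, 7 rose and 2 fell in the first step (median 0.41), beside the same 25.6% and 25.4% of all genes. Socs2, an inhibitor of cytokine signalling that STAT5 induces, rose 5.72-fold, Spred1, an inhibitor of Ras signalling, 2.80-fold, and Cblb, a ubiquitin ligase, at least 2.60-fold. In the second step 3 rose and 3 fell, where 10.5% of all genes tested passed as higher and 11.1% as lower. Cblb was a further 2.53-fold higher and the adaptor genes Dok2 and Dok3 2.17-fold and 1.99-fold lower. Of 12 STAT5 targets and survival genes, 3 rose and 3 fell in the first step, which is near the 51.0% of all genes tested that passed. The largest changes were in Id2, a transcription regulator needed for DC (3.64-fold higher), Ccnd3, a D-type cyclin (2.43-fold lower), and the survival gene Mcl1 (1.77-fold higher). In the second, 4 rose and 3 fell, beside the same 10.5% and 11.1% of all genes tested. The largest changes were in Ccnd1 (9.52-fold lower), Ccnd2 (3.19-fold higher) and Myc (at least 1.64-fold lower).

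Of 21 transcription factors tied to these receptor genes, 6 rose and 6 fell in the first step (median -0.24), again near the 51.0% of all genes tested. Gfi1 and Cebpe, factors of granulocyte development, were 24.4-fold and 15.9-fold lower, and Egr1, an early response factor, was 5.82-fold higher. Gfi1 was above background on 1 of the 2 immature DC arrays. In the second step 1 rose and 6 fell (median -0.30), where 10.5% of all genes tested passed as higher and 11.1% as lower. Egr1 was 8.03-fold, Klf4 5.80-fold and Egr2 3.10-fold lower. None of the genes in these 4 lists passed between SB202190 and DMSO. Of the 3 partner chains tested, Crlf2, Il6st and Epor, none passed in either step.

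The genes whose pattern over the 6 arrays lay closest to each receptor were named by the root mean square difference of log2 values, each centred on its own mean. For Il7r these were Map3k14, a kinase of the non-canonical NF-kB pathway (0.070), and Cd86, a costimulatory ligand (0.12), where the median over all genes tested was 1.68. For Csf1r they were P2rx4, an ATP-gated channel (0.068), and Adap2 (0.10). For Csf2rb2 they were Kif5c (0.069), detected on 4 arrays, and the MHC class I gene H2-Q7 (0.090), and for Csf2rb they were Itprid2 (0.050) and the BCL2 family gene Bcl2a1d (0.065). H2-Q7 and Bcl2a1d belong to families of near-identical genes. Csf2ra lay closest to Sesn1 (0.043) and Niban2 (0.048), Il3ra to Sigirr (0.045) and Cep95 (0.049), and Csf3r to the tRNA methyltransferase gene Trmt61a (0.089) and Rrp15 (0.12). Kit lay less close to its nearest genes, Ndrg2 (0.17) and the chromatin organizer Satb1 (0.21), than each other receptor gene did to its own. These are descriptions over 6 arrays that share their stages.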

How the data were processed

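Single-colour Illumina arrays of 6 samples (1 for each of 3 stages and 2 treatments) were analysed. Per the file headers, the deposited non-normalized table gives an intensity (mean bead brightness) and a detection p-value for each probe and array. A second deposited table holds the authors' processed intensity values, on a linear scale from -51.1 to 42993 with column medians of 7.89, 7.88, 7.89, 7.88, 7.85 and 7.89, which served as an alternative. The sources used here do not state how it was made. Per the labels' protocols, an Ambion kit served to make the labelled cRNA.

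Intensities were corrected by normexp (offset 16, with the background inferred from the detection p-values) and quantile normalized in limma 3.58.1 (R 4.3.3), then put on the log2 scale. Platform annotation gave 34885 probes 1 gene symbol, 18 several and 10378 none. Per gene, the brightest probe detected (p under 0.01) on at least 1 array was used, and the 9223 genes detected on at least 2 arrays were tested in an additive limma model of stage and treatment (2 residual and 3.73 prior degrees of freedom). Benjamini-Hochberg adjustment ran over all genes tested, with a threshold of 0.05. The model was tested on simulated data. "At least" folds set the brighter stage against the lowest signal of detected probes, or the probe's own where higher.

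The receptor genes and the gene lists were chosen with earlier results of these data known. In the pathway lists, up to 3 genes per list and step with the largest change past the threshold were named, and every detected ligand. For genes of like pattern, the 2 nearest were named. Alternatives covered background correction, scaling, probe choice, detection filter, moderation, the block and each array left out. No genome was used, and promoter sequences came from a RefSeq table.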

Additional observations from a re-analysis of the deposited data

Results flagged for a closer look

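Several receptor genes had SB202190 minus DMSO log2 differences of opposite sign in a pair of stages, each at least 0.1 in size. With 1 array on each side, none of these differences between stages was tested. For Kit the immature DC difference exceeded that in pre-DC by 1.25 (1.13 in immature DC against -0.12 in pre-DC) and the mature DC difference did so by 0.86 (0.74 in mature DC against -0.12 in pre-DC). For Il7r the values were 0.94 (0.72 in immature DC against -0.22 in pre-DC) and 0.72 (0.50 in mature DC against -0.22 in pre-DC). For Csf2rb2 they were 0.80 (0.52 in immature DC against -0.28 in pre-DC) and 0.57 (0.29 in mature DC against -0.28 in pre-DC). For 2 genes the mature DC difference was the lower one: by -0.47 for Csf1r (-0.30 in mature DC against 0.17 in immature DC) and by -0.53 for Csf3r (-0.33 in mature DC against 0.20 in immature DC).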

How the results depend on the processing

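The rise or fall of the 8 receptor genes from pre-DC to immature DC kept its sign in each alternative run with a probe detected on at least 4 arrays, and other calls lost are given beside their results. With 1 array left out, 0 to 41 genes passed between treatments (41 without either pre-DC array, 0 without any other), 2588 to 4708 from pre-DC to immature DC (fewest without the immature DC array of SB202190), 573 to 2545 from immature to mature DC (795 and 573 without the immature DC arrays of SB202190 and DMSO, 666 and 858 without the mature DC arrays of SB202190 and DMSO) and 4610 to 5213 over the whole course. A stage left with 1 array is assumed to vary like the others, and for the treatment, leaving out an array equals leaving out its pair. With trend and robust moderation 1 gene passed between treatments. With 1 array left out the treatment difference ran from -0.15 to 0.089 for Csf1r and from -0.17 to 0.099 for Csf3r, and the whole-course difference of Kit from -1.04 to 0.018. With other probes detected on some arrays, values that turned sign were 0.37 for Csf3r from immature to mature DC (probe 3), 0.039 for Csf3r between treatments (probe 4) and -0.046 for Il7r between treatments (probe 2). With probes detected on no array they were -0.10 for Kit and -0.14 for Il7r between treatments and -0.021 for Il7r from pre-DC to immature DC. The cause was not tested. The treatment comparison already pairs the arrays of a stage, with stage as a block, and the stage comparisons carry treatment as a block; without them 0, 4503, 1793 and 5475 genes passed in the 4 comparisons, in the order of treatment, first step, second step and whole course.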
